A study of Bos taurus with 6 samples.

Results

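AHSG, FETUB, HRG and KNG1 encode a small family of plasma glycoproteins that carry cystatin-type domains, and in the bovine genome these genes lie side by side on the same chromosome. They were examined in cultured bovine granulosa cells (GC), the estradiol-producing cells that line the ovarian follicle. The members were chosen by gene symbol around AHSG, a gene already known to rise strongly in these cultures. Each of the 4 genes had 1 transcript cluster, a set of probes summarized as 1 gene, among the 26773 in the deposited table. KNG2, a further bovine kininogen symbol, is a synonym of KNG1 in RefSeq and had no row of its own. The difference in AHSG between the densities was thus part of the choice, and the members' differences are given as a description without a test.

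All of these proteins are made mainly by the liver and secreted into blood, from where they reach follicular fluid. AHSG encodes fetuin-A, which keeps calcium phosphate in solution and binds the insulin receptor and TGF-beta proteins. FETUB encodes fetuin-B, an inhibitor of the egg protease ovastacin that keeps the zona pellucida penetrable until fertilization. KNG1 encodes kininogen, from which kallikreins release bradykinin and which inhibits cysteine cathepsins. HRG encodes histidine-rich glycoprotein, which binds heparin, plasminogen and thrombospondin.

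RNA of 6 primary GC cultures, 3 from normal and 3 from high plating density, was hybridized to 6 arrays of the type Bovine Gene 1.0 ST. Cells of both groups were pools aspirated from small to medium follicles of abattoir ovaries of cows with unknown cycle stage. All cultures received FSH, IGF-1 and androstenedione in serum-free alpha-MEM for 9 days. The stated difference between the groups was the number of plated cells. The study's methods count 6 GC preparations, 3 per group, and describe such preparations as cell pools. The labels do not state whether replicates came from separate pools, or whether both densities used the same pools. The p-values therefore measure the spread between these cultures.

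Signals are on the log2 scale. Reporter control rows, 82 in number, gave a background level of 4.62, the 95th percentile of their signals over the 6 arrays. In 51.2% of all transcript clusters both density means were at or below this level. Of 14 GC marker genes all exceeded it in at least 1 density mean. However, CYP19A1, the estradiol-forming aromatase, was below it in all 3 high density cultures, and HSD17B1 in all 3 normal density cultures. FSHR, the FSH receptor, was below it in high density replicate 3, at 4.53. Called refers to transcript clusters past the thresholds of the study's methods, here applied in limma, namely more than 1.5-fold with p-value and FDR below 0.05. Among all transcript clusters 7.49% were called, 3.97% as higher and 3.51% as lower at high density.

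AHSG was below background at normal density and had a strong signal at high density. At normal density its log2 signals were 4.40, 4.43 and 3.60 in replicates 1, 2 and 3, all below the background level. At high density they were 9.59, 9.61 and 9.61. The groups were thus separated by a gap of 5.16 on the log2 scale between the highest normal density and the lowest high density culture.

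The mean AHSG signal of the normal density cultures was 4.14 ± 0.47 (SD, n = 3), that of the high density cultures 9.60 ± 0.01 (SD, n = 3). Of the 82 reporter control rows 8 had a normal density mean at or above that of AHSG, and 0 had a high density mean at or above it. The log2 difference was 5.46 with a standard error of 0.21 and a 95% interval of 4.97 to 5.95. As the normal density signals were not above background, the size of the rise is only bounded, and AHSG was at least 31.6-fold higher at high density, taken against the background level. In a culture, more RNA per cell and more cells that express the gene cannot be told apart. GC markers moved as well, since 6 of 14 were called as lower and 1 as higher, 50% beside 7.49% of all transcript clusters. FSHR fell from a mean of 6.93 to 4.73. HSD17B1, the marker called as higher, had means of 4.19 and 5.45, the former below the background level. The part of this shift of GC markers in the AHSG signal was not tested.

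The cultures differed little in AHSG at high density and much at normal density. The SD between normal density cultures was larger than that of 99.2% of all transcript clusters, while the SD between high density cultures was larger than that of only 0.792%. This closeness depended on the scaling, as the SD at high density was 0.00994 in the deposited values and 0.0419 with array medians set equal. Normal density replicate 3 set the spread at normal density, which was 0.02 without it. Since all of these normal density signals lay below the background level, their order says little about transcript abundance. Without high density replicate 2, the culture whose removal moved the count of called transcript clusters most, the log2 difference of AHSG was 5.46.

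**Figure D1:**
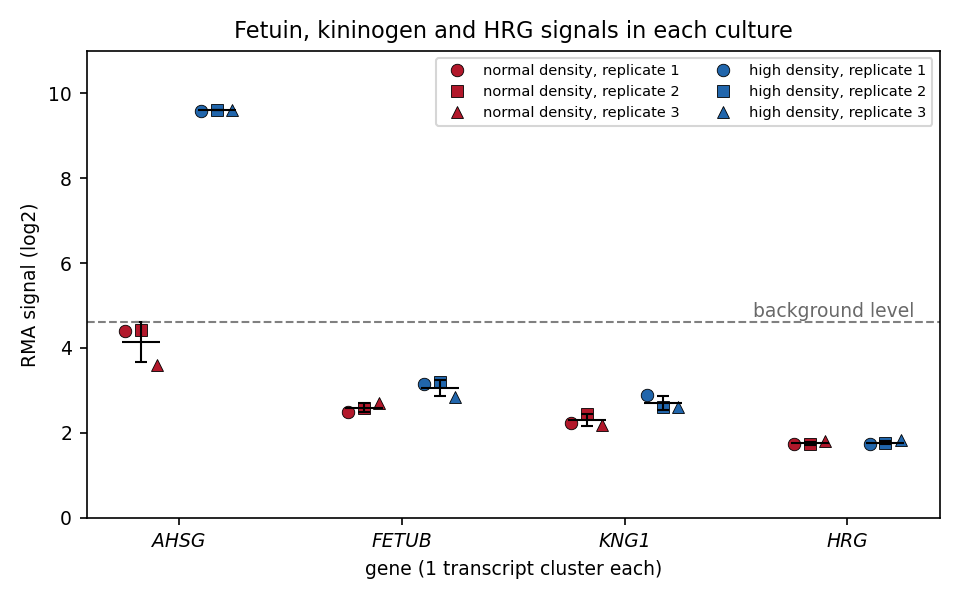
RMA signal on the log2 scale (y axis) of AHSG, FETUB, KNG1 and HRG (x axis) in each culture. Points are cultures, horizontal bars the mean of 3 cultures with SD, and the dashed line the background level of 4.62. AHSG at high density, near 9.60, is the only set of signals above that line.

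FETUB, KNG1 and HRG stayed below the background level in every culture. FETUB had signals of 2.50, 2.58 and 2.70 at normal density and of 3.15, 3.19 and 2.85 at high density. All high density cultures were above all normal density cultures, by a gap of 0.15. The means were 2.60 ± 0.10 and 3.06 ± 0.18 (SD, n = 3), a log2 difference of 0.47 (standard error 0.11).

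KNG1 showed a similar pattern at a still lower signal. Its signals were 2.23, 2.46 and 2.20 at normal density and 2.88, 2.60 and 2.62 at high density, and again the groups did not overlap. The means of 2.29 ± 0.14 and 2.70 ± 0.16 (SD, n = 3) differed by 0.41 on the log2 scale (standard error 0.11). Reporter control rows had a median signal of 2.48 over the arrays, so both FETUB and KNG1 lay in the middle of the range of rows without a bovine target, and no fold change is given for them.

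HRG did not separate the cultures. Signals were 1.74, 1.73 and 1.80 at normal density and 1.73, 1.77 and 1.82 at high density, with means of 1.76 ± 0.04 and 1.77 ± 0.04 (SD, n = 3). The log2 difference of 0.02 had a 95% interval of −0.14 to 0.17. Its normal density mean exceeded only 26.0% of the reporter control signals, so that a change of HRG transcripts below detection would not be visible here.

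Of the 4 members 1, AHSG, was called, beside 7.49% of all transcript clusters. In AHSG, FETUB and KNG1, 3 of 4 members, every high density signal exceeded every normal density signal, as in 17.8% of all transcript clusters. The reverse order was found in 19.5% of all transcript clusters, and separation in either direction in 37.3%. Because the contrast served to choose AHSG, nothing is read from these counts. None of the members shared its 6 signals with another row of the table, so that their values are separate measurements.

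In the RefSeq gene order of the bovine assembly ARS-UCD2.0 the genes follow each other as KNG1, HRG, FETUB and AHSG, without another protein-coding gene between them. The 10 named protein-coding genes on each side were all measured. Of these 20 neighbours, 1 was called as higher and 1 as lower, 10% in all beside 7.49% of the whole table. The median log2 difference of the neighbours was 0.04, compared with 0.02 for all transcript clusters.

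The gene next to AHSG on its other side is DNAJB11, a chaperone of the endoplasmic reticulum. Its signals of 7.46, 7.49 and 7.48 at normal density and 7.10, 7.44 and 7.20 at high density were well above background in every culture. DNAJB11 was not called, with a log2 difference of −0.23 (limma's adjusted p = 0.148, standard error 0.10). EIF4A2, a translation initiation factor next to KNG1, had means of 5.88 and 6.02 and was not called either (limma's adjusted p = 0.359). Thus of the genes directly flanking the block, neither passed the thresholds.

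SST, encoding the peptide hormone somatostatin, was the neighbour that fell. Its signals were 6.22, 6.47 and 6.86 at normal density and 4.54, 4.44 and 4.64 at high density. This was a log2 difference of −1.98 (limma's adjusted p = 0.000219, standard error 0.16). The high density mean lay just below the background level. IGF2BP2, encoding an mRNA-binding protein, was called as higher (limma's adjusted p = 0.000108), but its mean rose only from 3.47 ± 0.04 to 4.45 ± 0.01 (SD, n = 3), without reaching background.

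The 18 neighbours that were not called differed by at most 0.42 in size on the log2 scale. The largest was ST6GAL1, a sialyltransferase, with means of 4.08 and 4.50, neither above background. BCL6, a transcriptional repressor, had the highest signal of this group, with means of 9.21 ± 0.07 and 9.38 ± 0.10 (SD, n = 3) and overlapping groups. ADIPOQ, which encodes adiponectin, was near 2.9 at both densities. A difference of the size seen in AHSG was therefore not found in any of the 20 neighbours. However, 10 of them had both means at or below the background level.

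**Figure D2:**
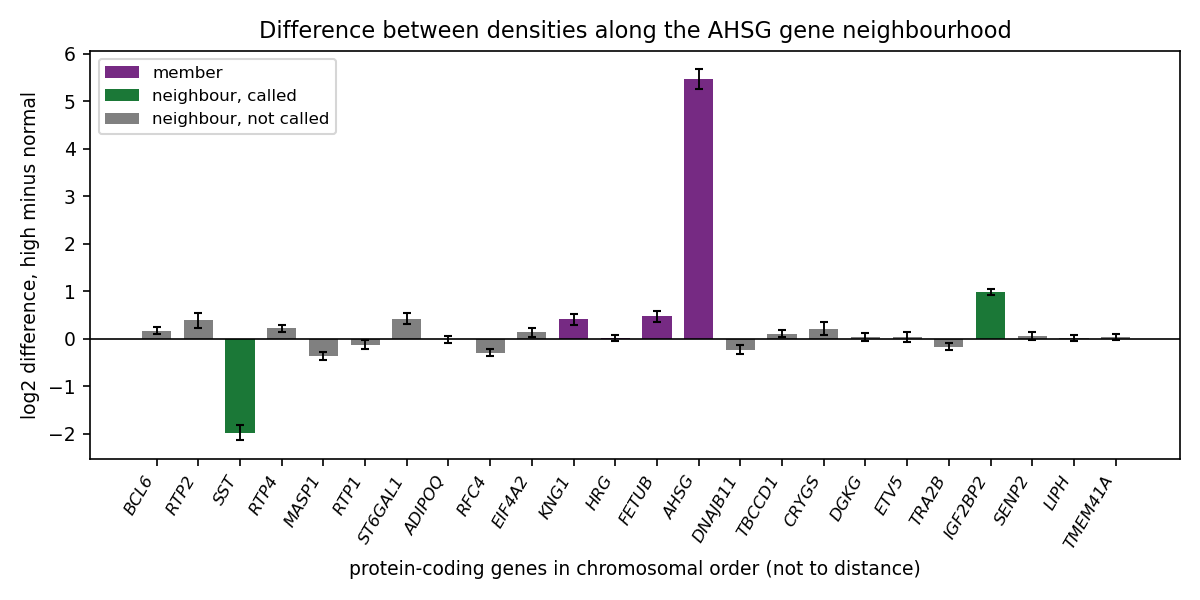
Log2 difference between high and normal density (y axis) for the members and the 10 named protein-coding genes on each side in chromosomal order (x axis, equal steps, not to distance). Bars are differences of means of 3 cultures with standard errors. AHSG stands at 5.46, with SST at −1.98 and IGF2BP2 at 0.98 as the only called neighbours.

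Other genes of the cystatin superfamily were mostly not detected above background. Of 17 measured genes 0 were called as higher and 1 as lower, 5.88% beside 7.49% of all transcript clusters, and 12 had both means at or below the background level. Without the fold threshold, 4 of the 17 had an unadjusted p below 0.05 in limma, beside 8645 of all 26773 transcript clusters. The methods' t-test also called 1 as lower and 0 as higher. The median log2 difference was 0.01. The gene that fell was RARRES1, a membrane protein related to latexin, from 7.75 ± 0.18 to 6.29 ± 0.14 (SD, n = 3), a log2 difference of −1.46 (limma's adjusted p = 0.000222, standard error 0.12).

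The intracellular cathepsin inhibitor cystatin B (CSTB) and latexin (LXN), a carboxypeptidase inhibitor, had strong signals. CSTB had means of 10.24 ± 0.02 and 10.54 ± 0.08 (SD, n = 3) and was not called. A second transcript cluster of CSTB disagreed and was called, with means of 9.02 and 9.79 and a log2 difference of 0.77 (limma's adjusted p = 0.000372, standard error 0.07). LXN had means of 9.84 ± 0.03 and 9.95 ± 0.05 (SD, n = 3) and was not called.

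In the kallikrein-kinin system, which acts on kininogen, 22 genes were measured, of which 3 were called as higher and 1 as lower, 18.2% beside 7.49% of all transcript clusters. The median log2 difference was 0.07. Genes of the plasma cascade itself, F11, F12 and KLKB1, stayed below the background level, and KLKB1, encoding plasma kallikrein, had a mean of 2.48 at both densities. The bradykinin receptor genes BDKRB1 and BDKRB2 had means between 2.42 and 2.77, likewise below the background level.

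The genes that rose were those of an inhibitor, a receptor and a protease. SERPING1, encoding the C1 inhibitor that blocks plasma kallikrein, rose from 5.54 ± 0.03 to 6.81 ± 0.17 (SD, n = 3), a log2 difference of 1.26 (limma's adjusted p = 0.000194, standard error 0.10). PLAUR, the urokinase receptor, rose from 7.20 ± 0.14 to 8.27 ± 0.07 (SD, n = 3), by 1.07 (standard error 0.09, limma's adjusted p = 0.000303). KLK1, encoding tissue kallikrein, which releases kinin from kininogen, rose from 5.04 ± 0.13 to 5.89 ± 0.30 (SD, n = 3), by 0.85 (limma's adjusted p = 0.0081, standard error 0.15). KLK1 was not called by the methods' t-test (adjusted p = 0.0678).

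ECE1, an endothelin-converting and kinin-degrading protease, and C1QBP, a surface protein that binds kininogen, had strong signals that were not called. Their means were 10.83 and 10.94 for ECE1 and 9.81 and 9.78 for C1QBP.

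Genes whose products bind fetuins or HRG, or act in the same processes such as mineralization, were examined as a list of partners, of which 33 were measured. Of these 3 were called as higher and 1 as lower, 12.1% beside 7.49% of all transcript clusters, with a median log2 difference of 0.03. The largest rise was that of ALPL, encoding the alkaline phosphatase of mineralizing tissue, from 6.93 ± 0.28 to 9.24 ± 0.21 (SD, n = 3). It rose by 2.31 in log2 units (limma's adjusted p = 0.000136, standard error 0.16). ENPP1, which produces the mineralization inhibitor pyrophosphate, rose by 0.66 (standard error 0.08, limma's adjusted p = 0.00156) from a mean of 6.62 to 7.28.

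HPSE, encoding heparanase, differed by 0.67 in log2 units (limma's adjusted p = 0.0251, standard error 0.16), but this call was lost in 5 of the 6 fits that leave out a culture. In 4 of these the log2 difference stayed between 0.66 and 0.69 and limma's adjusted p was between 0.0722 and 0.081, while without high density replicate 2 the log2 difference was 0.51. CD36, a receptor for thrombospondin and fatty acids, fell from 8.54 ± 0.08 to 7.71 ± 0.20 (SD, n = 3), a log2 difference of −0.82 (limma's adjusted p = 0.00236, standard error 0.11). The thrombospondins themselves were strongly expressed. THBS1 had means of 10.71 and 11.15, a log2 difference of 0.44 below the fold threshold, and THBS2 means of 10.32 and 10.26.

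Among the partners that were not called, INSR, the insulin receptor bound by fetuin-A, had means of 7.67 and 7.20, a log2 difference of −0.47 (limma's adjusted p = 0.00535, standard error 0.08) that did not reach the fold threshold. ASTL, encoding the fetuin-B target ovastacin, had means of 3.49 and 3.36, below the background level, as had the zona pellucida genes ZP2, ZP3 and ZP4. These oocyte genes were thus not detected in either group.

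Since AHSG is best known as a liver gene, 51 genes of other liver-derived plasma proteins were described next to it. All were measured, and 6 were called as higher and 3 as lower, 17.6% of the list beside 7.49% of all transcript clusters. For 40 of them both means were at or below the background level, and the median log2 difference was 0.10. This list was written with results of these data known, and nothing particular to it follows from the count.

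Among the rises, SERPINF1, an antiangiogenic serpin, had means of 3.51 ± 0.20 and 5.08 ± 0.35 (SD, n = 3), of which only the latter was above background, a rise of at least 1.37-fold (limma's adjusted p = 0.00119). TF, encoding the iron carrier transferrin, rose from 4.85 to 6.14, by 1.29 in log2 units (limma's adjusted p = 0.00013, standard error 0.09). APOA1, the main apolipoprotein of high density lipoproteins, rose from 6.97 to 7.60, by 0.63 (standard error 0.09, limma's adjusted p = 0.00237). The other rises were those of ITIH4, A2M and LCAT, with log2 differences between 0.65 and 0.75, of which that of ITIH4 started below background and is bounded only as at least 1.02-fold. Some of these differences lay close to the fold threshold. Without normal density replicate 3 those of APOA1 and A2M were 0.57 and 0.58, and without normal density replicate 1 or high density replicate 3 that of LCAT was 0.56 or 0.58, just under the threshold with limma's adjusted p between 0.00716 and 0.045.

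FGG, a fibrinogen chain, was called as lower with means of 5.71 and 5.11, a log2 difference of −0.60 (limma's adjusted p = 0.014, standard error 0.12). This call was lost without normal density replicate 1, normal density replicate 3 or high density replicate 1. The other called falls, ORM1 and SERPINC1, had means of 4.32 and 3.10 and of 4.46 and 3.80, all below the background level. SERPINC1 was not called without normal density replicate 1 or high density replicate 2. RBP4, the retinol carrier, was well expressed with means of 6.97 and 7.47 and missed the fold threshold with a log2 difference of 0.50 (limma's adjusted p = 0.00203, standard error 0.07).

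Defining hepatocyte genes were near background. Of these 0 were called as higher and 1, SERPINC1, as lower, 10% beside 7.49% of all transcript clusters. Of 10 hepatocyte markers 9 had both means at or below the background level, among them albumin (ALB) with 3.09 and 3.28 and transthyretin (TTR) with 3.21 and 3.28. APOC3, an apolipoprotein, was marginally above it with 4.70 and 4.80 and was not called. The summed linear signal of the 10 markers was between 94.9 and 106 at normal density and between 92.9 and 103 at high density, ranges that overlap.

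Transcription factors known for liver gene expression were measured for 32 genes, of which 3 were called as higher and 1 as lower. This was 12.5% beside 7.49% of all transcript clusters, with a median log2 difference of 0.12. HNF4A, a central factor of hepatocytes, had means of 4.04 and 4.17, below the background level at both densities. CEBPG, a bZIP factor of the C/EBP family, rose from 6.88 ± 0.11 to 7.77 ± 0.10 (SD, n = 3), by 0.89 (standard error 0.09, limma's adjusted p = 0.000607). NR0B2, an inhibitory nuclear receptor, rose at least 1.25-fold from a mean below background to 4.95 (limma's adjusted p = 0.000444).

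ATF5, a stress-responsive bZIP factor, was called as higher with means of 4.68 and 5.28, but not without normal density replicate 1, high density replicate 1 or high density replicate 3. NR1H4, the bile acid receptor, fell from 6.93 to 6.17, a log2 difference of −0.76 (limma's adjusted p = 0.00485, standard error 0.12). CEBPD fell just short of the fold threshold with a log2 difference of −0.54 (limma's adjusted p = 0.00178, standard error 0.07), and it was called once array medians were set equal, a setting in which ATF5 was not. GATA6, a factor shared by liver and GC, had means of 9.97 and 10.01 and overlapping groups, while NR5A2, also shared by both, had means of 9.37 and 9.78 and was not called.

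**Figure D3:**
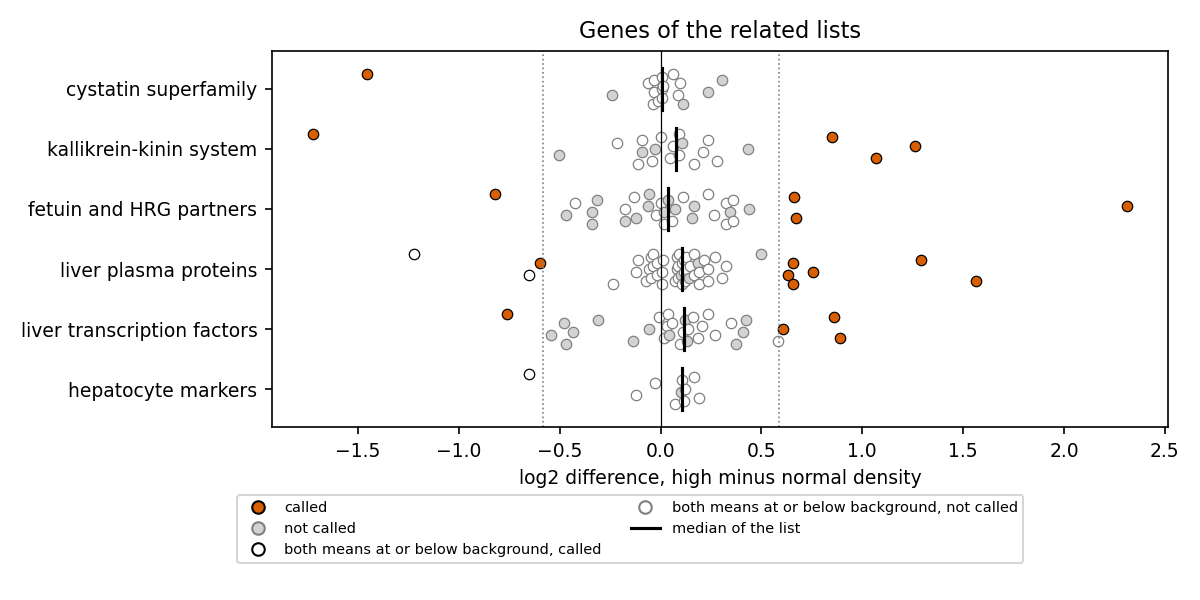
Log2 difference between high and normal density (x axis) for each gene of the lists (y axis, vertical position within a list has no meaning). Orange points were called and grey points not, open points had both means at or below the background level of 4.62 (black rim, called), short lines are list medians and dotted lines mark the fold threshold. The medians lie between 0.01 and 0.12, while single genes such as ALPL at 2.31 and RARRES1 at −1.46 lie far from them.

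Markers of other cell types were compared between the densities as well. Of 10 leukocyte markers 0 were called by limma, beside 7.49% of all transcript clusters, and all 10 were below the background level. An unadjusted p below 0.05 in limma was found for 2 of them, beside 8645 of all 26773 transcript clusters. Among 8 erythroid markers only HBA, an alpha globin gene, was called, with means of 3.48 and 9.37. This was 12.5% of the list beside 7.49% of all transcript clusters. The summed linear signal of the 7 other erythroid markers was between 53.8 and 57.0 at normal density and between 57.1 and 65.5 at high density. HBA and AHSG thus shared a change from below background to a high signal, while 7 of 8 erythroid markers stayed below the background level.

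Of 9 endothelial markers only CLDN5, a claudin of tight junctions, was called, from 4.71 to 7.53, 11.1% of the list beside 7.49% of all transcript clusters. PECAM1 and CDH5, which define endothelium, had means between 2.36 and 2.77, and the summed linear signal without CLDN5 was between 92.3 and 97.8 at normal density and between 101 and 108 at high density. Of 5 theca markers only INSL3, an insulin-like peptide, was called, from 7.20 to 9.02, 20% of the list beside the same 7.49%. The theca enzyme gene CYP17A1 was near 2.9 at both densities. VWF, PTCH1 and NR2F2, the other endothelial and theca markers above background, were not called. These marker lists are short, and nothing is read from their counts of called genes. The part of other cell types in the AHSG signal was not tested beyond these levels.

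The transcript profile of AHSG over the cultures was compared with all transcript clusters that carry a symbol and vary by at least 2 on the log2 scale, 159 in number. Pearson's r over the 6 cultures was used as a description. As the cultures fall into the groups of the design, r was high for most of them, with 121 of them at 0.95 or more. The 5 highest were KIAA1217, LPL, KRT18, RAB33A and RASGRP1, with r between 0.9989 and 0.9996. They stand out little, as 76 of the 159 had r of 0.99 or more. The normal density signals of AHSG that enter r were all below the background level.

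LPL encodes lipoprotein lipase, which releases fatty acids from triglycerides. Its signals were 6.81, 6.91 and 6.50 at normal density and 10.12, 10.09 and 10.03 at high density, all above the background level. KRT18, an epithelial keratin, had signals of 5.02, 4.94 and 4.28 and of 9.16, 8.93 and 9.02. In both, the groups were separated by more than 3 on the log2 scale.

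RASGRP1, an activator of Ras, had signals of 7.59, 7.45 and 7.28 at normal density and of 9.46, 9.48 and 9.48 at high density, with an SD of 0.02 between the high density cultures. RAB33A, a small GTPase, had signals between 6.81 and 7.02 at normal density and of 9.08, 9.02 and 9.05 at high density. KIAA1217 had signals of 4.69, 4.74 and 4.39 and of 6.98, 6.97 and 7.06. All 5 genes were lowest in normal density replicate 3, which follows from their selection by likeness to AHSG. Only KIAA1217 stayed among the 5 highest with each culture left out in turn, while LPL did so in 5 and RASGRP1 in 1 of these 6 settings.

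**Figure D4:**
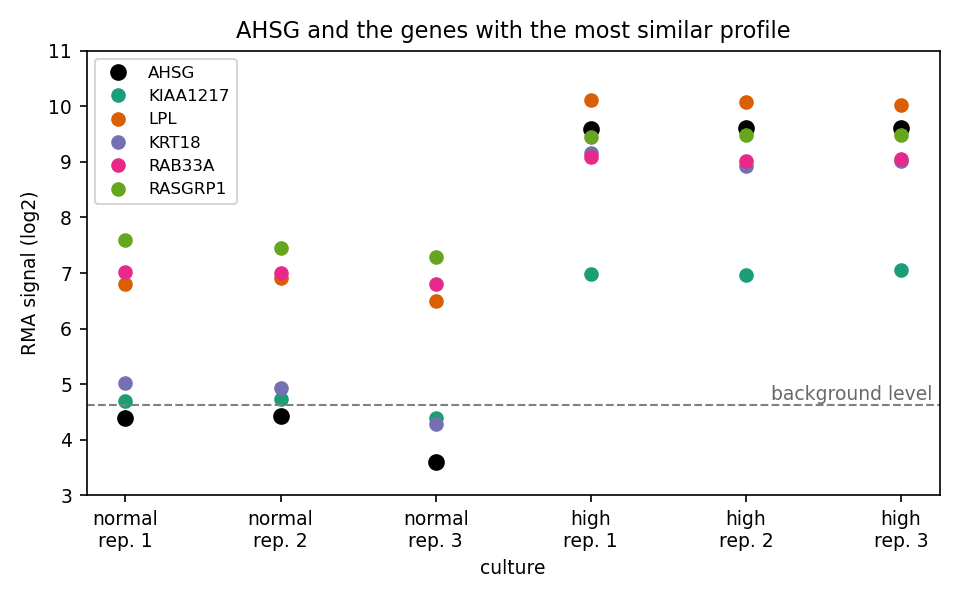
RMA signal on the log2 scale (y axis) in each culture (x axis) for AHSG and the 5 genes with the highest Pearson's r to it over the 6 cultures. Each point is 1 culture, and heights of different genes are not comparable as transcript amounts. In all of them the 3 high density cultures lie above the 3 normal density cultures, as the choice of genes by r implies.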

How the data were processed

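RNA of 6 GC cultures was measured on arrays of the type Bovine Gene 1.0 ST. Expression Console with RMA was used by the authors, and the deposited table holds log2 signals per transcript cluster, background corrected, normalized and summarized. The genome build behind the array annotation is not given in the sources used here. The table has 0 columns of other samples and was used without further normalization. The densities were compared by limma 3.58.1 under R 4.3.3 without covariates, using lmFit and eBayes, and p-values of all 26773 transcript clusters were adjusted together after Benjamini-Hochberg. For a symbol with several transcript clusters the one with the highest mean signal was used. Where 1 density was below background on all arrays, the bound of a fold takes these signals at the background level.

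Members and gene lists were chosen with earlier results of these data known. List genes were matched by symbol, or by the accession or synonym of the RefSeq table, and 8 entries were not matched. In each list and among the neighbours the genes named are the called ones, at most the 4 largest rises and falls, and up to 2 with the highest signal not called, besides the 5 genes most like AHSG and markers above background. Others were named after their values were seen. They are F11, F12, KLKB1, BDKRB1, BDKRB2, INSR, ASTL, the ZP genes, DNAJB11, EIF4A2, ST6GAL1, ADIPOQ, HNF4A, CEBPD, TBX3 and the markers ALB, TTR, PECAM1, CDH5 and CYP17A1.

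The labels do not state whether replicate numbers pair cultures across densities, and the numbers were not taken as pairs. The tests were checked on simulated data. The number of arrays limits the precision. The alternatives were other normalizations, variance models and tests, a floor at the background level, a filter on low signals, the replicate block and leaving out each culture. Figures were drawn with matplotlib 3.10.9. The qPCR and hormone measurements were not analysed here, and the values of some list genes are not reported here.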

Additional observations from a re-analysis of the deposited data

How the results depend on the processing

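The rise of AHSG was between 5.19 and 5.60 on the log2 scale with each culture left out, and 4.98 with signals below the background level raised to it. Under this floor the differences of FETUB and KNG1 were 0, since all of their signals lie below it, and the SD of AHSG at normal density was 0. With each culture left out, the difference was between 0.40 and 0.57 for FETUB, between 0.31 and 0.49 for KNG1 and between −0.01 and 0.04 for HRG, and that of HRG was −0.026 with array medians set equal. That setting gave an SD of AHSG at high density of 0.0419. The SD of AHSG was between 0.02 and 0.59 at normal density and between 0.003 and 0.01 at high density with single cultures left out. Of the neighbours 1 was called when only transcript clusters above the background level were tested, since IGF2BP2 was then not tested. Each setting that left out a culture kept 3 of the 5 genes most like AHSG, not always the same, and 1 of them shared the highest value of Spearman's rho, where 18 transcript clusters were tied.

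Counts of called genes in the lists stayed within 1.5 times of the main count in all settings, and were between 6 and 9 for the liver plasma proteins with single cultures left out. In all, limma called 2005 transcript clusters, and between 1848 and 2434 with single cultures left out, the latter without high density replicate 2. With array medians set equal 955 were higher and 1119 lower, with array weights 1128 and 1183, in place of 1064 and 941. KLK1, HPSE, FGG, SERPINC1, LCAT and ATF5 were not called by the pooled-variance t-test, and TBX3 was called in 3 settings that left out a culture. In the fit with the replicate number as a block 2020 were called, and the differences and the calls in the lists were the same. Deviations of cultures with the same number correlated between −0.05 and 0.05, so the numbers were not taken as pairs. Signals at or below the background level limit what can be said of FETUB, KNG1 and HRG.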
